A study of Mus musculus with 12 samples.

Results

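The 10 genes described here encode stroma-derived cytokines and alarmins: Il7, Il15, Il33, Csf1, Il34, Il6, Lif, Il11, Tnfsf13b and Tnfsf11. They were chosen by name, with earlier results of these data known, and all 10 were found among the 32052 genes of the count table. Of these, 9 passed the filter on low counts that left 16757 genes for testing, and Tnfsf11 did not. RNA was sequenced from stromal cells of C57Bl6 mice aged 8 to 12 weeks, in 12 libraries of 6489835 to 12286054 counts. The cells had been sorted as negative for the epithelial marker EPCAM and the leukocyte marker CD45, and then by a GFP transgene that reports Rspo3, the gene of the Wnt amplifier R-spondin 3. The 4 groups of 3 libraries are GFP-positive colonic cells, GFP-negative colonic cells, GFP-positive small intestinal cells and GFP-negative small intestinal cells. The labels name the Rspo3-GFP transgene and no other allele or treatment, and they do not state whether animals were pooled or whether each replicate was its own animal. The deposited column names give both sorts of a replicate the same mark, and replicate 3 carries 1 ID number in all 4 groups, without saying what the ID stands for. Replicates of the 2 tissues may therefore share a source, and the p-values measure the spread between these libraries, which may be technical.

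Stromal cytokines are secreted by fibroblasts, endothelium and muscle of the gut wall and act on leukocytes, epithelium and on the stroma itself. Interleukin 7 and interleukin 15 keep lymphocytes alive, and interleukin 33 is an alarmin, a nuclear protein that is released from damaged cells and activates type 2 innate lymphoid cells, regulatory T cells and mast cells. CSF1 and interleukin 34 are both ligands of the CSF1 receptor of macrophages, the interleukin 6 family signals through the shared receptor gp130 to STAT3, and the TNF family ligands TNFSF13B (BAFF) and TNFSF11 (RANKL) support B cells and the development of gut lymphoid tissue.

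Rspo3 checked the sort, at 161, 117 and 119 CPM (TMM-scaled counts per 1000000, in the order of replicates 1, 2 and 3 here and throughout) in colonic GFP-positive cells, against 2.49, 6.51 and 2.28 CPM in colonic GFP-negative cells. Small intestinal GFP-positive cells had 196, 191 and 192 CPM and small intestinal GFP-negative cells had 8.78, 13.7 and 4.50 CPM. The GFP-positive fractions held more than 1 cell type: the summed level of 7 lymphatic endothelial markers was 18003 to 21049 CPM in colonic GFP-positive and 205 to 335 CPM in colonic GFP-negative libraries, and 4302 to 14985 CPM in small intestinal GFP-positive and 201 to 589 CPM in small intestinal GFP-negative libraries. The sum of 7 fibroblast markers was 19236 to 23810 CPM in colonic GFP-positive and 25049 to 27589 CPM in colonic GFP-negative libraries, and 39174 to 60017 CPM in small intestinal GFP-positive and 7897 to 23011 CPM in small intestinal GFP-negative libraries. Small intestinal GFP-negative replicate 3 stood apart, with 1198 CPM over 10 leukocyte markers and 9007 CPM over 6 B and plasma cell markers, although the cells were sorted as CD45 negative. The other 11 libraries lay between 4.73 and 43.2 CPM and between 30.5 and 319 CPM on these lists. Mast cell markers summed to 24.4 CPM in small intestinal GFP-negative replicate 3 and to at most 0.457 CPM in any other library. Epcam, a gene the sort should exclude, reached 18.02, 50.8 and 170 CPM in colonic GFP-positive and 175, 75.7 and 182 CPM in colonic GFP-negative libraries. In the small intestine its values were 0, 2.17 and 0.472 CPM in GFP-positive and 43.3, 18.5 and 90.5 CPM in GFP-negative libraries.

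**Figure D1:**
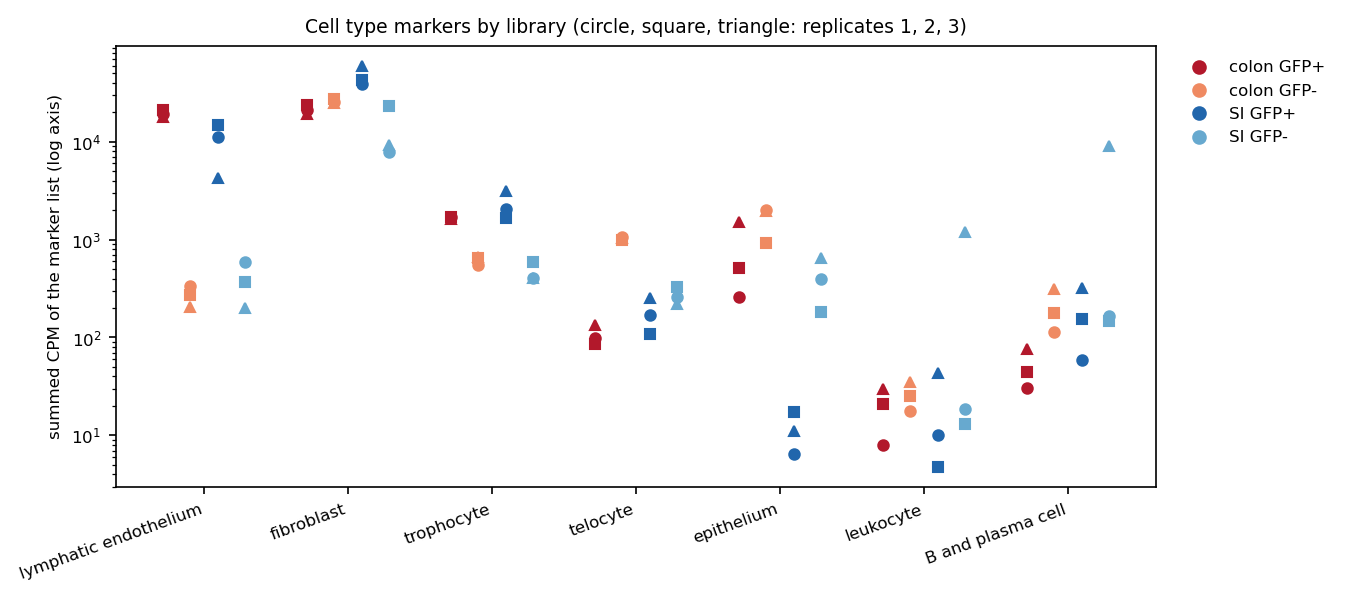
Summed CPM of cell type marker lists (log axis) in each of the 12 libraries, coloured by group and with a symbol per replicate. Lymphatic endothelial markers separate GFP-positive from GFP-negative libraries in both tissues, telocyte markers are highest in colonic GFP-negative libraries (986 to 1058 CPM), and leukocyte and B cell markers are high in small intestinal GFP-negative replicate 3 (1198 and 9007 CPM).

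Il7 and Il33 were higher in GFP-positive cells of both tissues. Il6 was higher in GFP-positive cells of the colon and Lif in GFP-positive cells of the small intestine, while Tnfsf13b and Il34 were lower in GFP-positive cells of the colon. In the colon 3 of the 9 tested members were called higher and 2 lower (edgeR quasi-likelihood test, Benjamini-Hochberg adjusted p under 0.05), where 4.62% of all tested genes were called higher and 4.06% lower. In the small intestine 3 were called higher, where 4.24% of all genes were called higher and 6.63% lower. Groups without overlap, every GFP-positive library on the same side of every GFP-negative one, were higher for 4 and lower for 4 members in the colon (17.8% of all genes in each direction). In the small intestine they were higher for 3 and lower for 1 (9.56% and 12.3% of all genes). Because the members were chosen with earlier results of these data known, such counts describe them and do not test them against all genes. The median log2 difference of the 9 members was 0.19 in the colon and 0.35 in the small intestine, against -0.03 over all tested genes in both. Each median is the value of 1 gene that was not called, Il11 in the colon and Csf1 in the small intestine. No direction is therefore given for the members as a set. Without small intestinal GFP-negative replicate 3 the small intestinal median was 0.21. In bulk RNA, fewer cells of a type and less RNA per cell cannot be told apart.

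**Figure D2:**
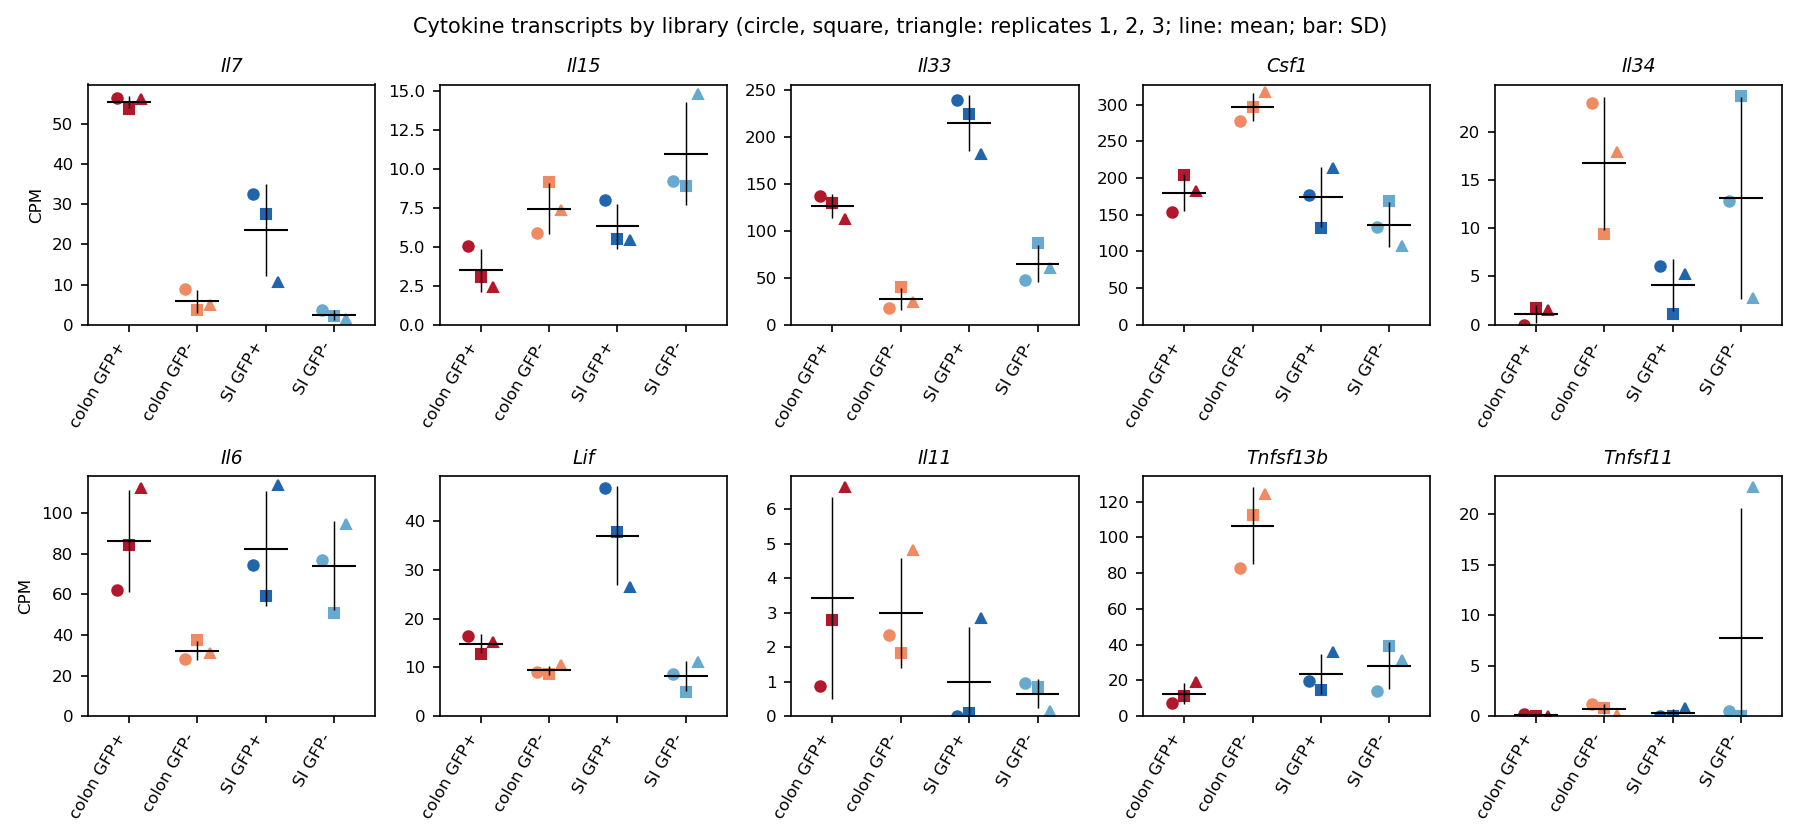
CPM of the 10 cytokine genes in each library, by group, with the mean as a line and the SD as a bar (n = 3). Il7 and Il33 lie higher in GFP-positive libraries of both tissues, Tnfsf13b stands at 82.6 to 125 CPM in colonic GFP-negative libraries, and the single high value of Tnfsf11 is small intestinal GFP-negative replicate 3 at 22.7 CPM.

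Among the lymphocyte survival factors, Il7 (ENSMUSG00000040329, chromosome 3, 7569994 to 7613760, minus strand of GRCm38) had 56.6, 53.7 and 56.2 CPM in colonic GFP-positive cells, against 8.95, 3.65 and 4.81 CPM in colonic GFP-negative cells. It had 32.5, 27.7 and 10.7 CPM in small intestinal GFP-positive cells and 3.73, 2.09 and 1.45 CPM in small intestinal GFP-negative cells. The groups did not overlap in either tissue, and the colonic GFP-positive libraries were close to each other, with a mean of 55.5 ± 1.55 CPM (SD, n = 3). The log2 difference was 3.26 ± 0.46 (SE, adjusted p = 8.40e-04) in the colon and 3.27 ± 0.47 (adjusted p = 0.00108) in the small intestine. Small intestinal GFP-positive replicate 3, the lowest of its group for Il7, was also the lowest for the lymphatic endothelial markers, at 4302 CPM, and highest for the fibroblast markers, at 60017 CPM. The part of the cell mixture in the Il7 difference was not tested.

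Il15 (ENSMUSG00000031712, chromosome 8, 82331632 to 82403222, minus strand), which sustains natural killer cells and intraepithelial lymphocytes, went the other way in value without passing the test. It had 5.05, 3.04 and 2.40 CPM in colonic GFP-positive cells and 5.87, 9.14 and 7.35 CPM in colonic GFP-negative cells (log2 difference -1.09 ± 0.39, adjusted p = 0.117). The values were 7.99, 5.52 and 5.43 CPM in small intestinal GFP-positive cells and 9.26, 8.88 and 14.8 CPM in small intestinal GFP-negative cells (-0.79 ± 0.38, adjusted p = 0.229). The groups did not overlap in either tissue. The highest of all 12 values was that of small intestinal GFP-negative replicate 3, the library rich in leukocyte markers.

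Il33 (ENSMUSG00000024810, chromosome 19, 29925114 to 29960718, plus strand) had 137, 129 and 112 CPM in colonic GFP-positive cells, against 17.5, 40.4 and 24.1 CPM in colonic GFP-negative cells. Small intestinal GFP-positive cells had 238, 224 and 182 CPM and small intestinal GFP-negative cells had 47.6, 86.7 and 60.3 CPM. Every GFP-positive library exceeded every GFP-negative library, also when the tissues were set against each other. The log2 difference was 2.20 ± 0.30 (adjusted p = 6.93e-04) in the colon and 1.72 ± 0.29 (adjusted p = 0.00267) in the small intestine. RefSeq lists 2 start sites for this gene, and the 300 bases around each are shown because the deposited gene counts merge their transcripts and so cannot say which start was used. The windows, from 250 bases before to 50 bases after the start, lie at chr19:29924863-29925162 and chr19:29945540-29945839 on the plus strand of GRCm38.p6. Capitals mark the TATA box letters TATAAA, searched on both strands.
Il33 start 1: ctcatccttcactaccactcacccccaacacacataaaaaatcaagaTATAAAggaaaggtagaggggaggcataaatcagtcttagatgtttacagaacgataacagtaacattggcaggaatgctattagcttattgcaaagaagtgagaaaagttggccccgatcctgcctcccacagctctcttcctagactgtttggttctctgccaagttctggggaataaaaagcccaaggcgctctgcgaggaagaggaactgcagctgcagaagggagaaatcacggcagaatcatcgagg
Il33 start 2: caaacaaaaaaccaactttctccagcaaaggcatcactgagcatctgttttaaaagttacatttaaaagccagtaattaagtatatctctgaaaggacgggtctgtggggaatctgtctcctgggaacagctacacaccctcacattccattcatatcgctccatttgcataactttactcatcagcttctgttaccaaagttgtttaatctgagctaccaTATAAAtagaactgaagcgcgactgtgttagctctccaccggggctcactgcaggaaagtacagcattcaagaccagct
In the second window the TATA letters begin at position -29 and in the first at -203, counted from the start site. Of 32851 promoter windows of the same length, 13.6% held these letters.

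The CSF1 receptor ligands differed from each other. Csf1 (ENSMUSG00000014599, chromosome 3, 107741048 to 107760469, minus strand), the main macrophage growth factor, was the most even member over the 12 libraries. It had 154, 203 and 182 CPM in colonic GFP-positive cells and 278, 296 and 317 CPM in colonic GFP-negative cells. These groups did not overlap, and the log2 difference of -0.72 ± 0.22 missed the threshold (adjusted p = 0.0616). DESeq2 called it, at an adjusted p = 0.00871, as did the fit to the colonic libraries alone, at 0.00165. Of the 6 fits without 1 colonic library, 0 called it, with adjusted p between 0.118 and 0.2655. Over all alternatives it was called in 5 and not called in 17. Small intestinal Csf1 was at 177, 132 and 213 CPM in GFP-positive cells and 133, 168 and 107 CPM in GFP-negative cells, which overlap (0.35 ± 0.22, adjusted p = 0.371).

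Il34 (ENSMUSG00000031750, chromosome 8, 110741829 to 110805924, minus strand), known for the upkeep of microglia and Langerhans cells, had 0, 1.72 and 1.49 CPM in colonic GFP-positive cells and 23.0, 9.37 and 17.9 CPM in colonic GFP-negative cells. The groups were far apart, and the log2 difference was -3.97 ± 1.06 (adjusted p = 0.0404). The call ended in each of the 6 fits without 1 colonic library, with adjusted p between 0.0695 and 0.114, and with the replicate number as a block, at 0.112. In the small intestine it had 6.07, 1.08 and 5.20 CPM in GFP-positive cells and 12.9, 23.7 and 2.73 CPM in GFP-negative cells, which overlap (-1.67 ± 0.94, adjusted p = 0.322). The receptor gene Csf1r had at most 3.78 CPM in 11 libraries and 135 CPM in small intestinal GFP-negative replicate 3.

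In the gp130 family, Il6 (ENSMUSG00000025746, chromosome 5, 30013114 to 30019981, plus strand) had 62.1, 84.4 and 113 CPM in colonic GFP-positive cells, against 28.2, 37.3 and 31.3 CPM in colonic GFP-negative cells. The log2 difference was 1.42 ± 0.30 (adjusted p = 0.00999), and without colonic GFP-negative replicate 1 the adjusted p was 0.0541. Small intestinal values were 74.5, 59.2 and 114 CPM in GFP-positive cells and 76.7, 50.9 and 94.7 CPM in GFP-negative cells, with full overlap (0.16 ± 0.29, adjusted p = 0.816). Colonic GFP-negative cells, at a mean of 32.3 CPM, lay below the other 3 groups, whose means were 74.1 to 86.3 CPM. The sum of 8 epithelial markers was 257 to 1515 CPM in colonic GFP-positive and 922 to 2031 CPM in colonic GFP-negative libraries, and its part in the Il6 difference was not tested.

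Lif (ENSMUSG00000034394, chromosome 11, 4257557 to 4272514, plus strand), leukemia inhibitory factor, had 46.8, 37.8 and 26.5 CPM in small intestinal GFP-positive cells, against 8.66, 4.91 and 11.1 CPM in small intestinal GFP-negative cells. The groups did not overlap, and the log2 difference was 2.18 ± 0.31 (adjusted p = 0.00102). On the deposited log2(TPM + 1) scale it was 0.94 and not called (adjusted p = 0.0629). TPM divides counts by transcript length, and this scale also adds 1. Protein-coding genes held only 4.65% to 8.09% of all TPM in the 12 libraries. Rescaled to the protein-coding total, without the added 1, Lif had 24.45 ± 10.79 TPM (SD, n = 3) in small intestinal GFP-positive cells. Small intestinal GFP-negative cells had 4.83 ± 0.301 TPM. The part of the added 1 in the value of 0.94 was not tested. In the colon Lif had 16.5, 12.7 and 15.3 CPM in GFP-positive cells and 9.09, 8.68 and 10.5 CPM in GFP-negative cells, also without overlap (0.65 ± 0.30, adjusted p = 0.261). Il11 (ENSMUSG00000004371, chromosome 7, 4772373 to 4782859, minus strand), a cytokine of fibroblasts and epithelial repair, was near the limit of detection. It had 0.879, 2.77 and 6.63 CPM in colonic GFP-positive and 2.35, 1.83 and 4.81 CPM in colonic GFP-negative cells, and 0, 0.0985 and 2.83 CPM in small intestinal GFP-positive and 0.962, 0.836 and 0.161 CPM in small intestinal GFP-negative cells. Its log2 differences of 0.19 ± 1.23 and 0.51 ± 1.32 (adjusted p = 0.965 and 0.872) leave its direction unsettled at this depth.

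The start regions of Il6 and Lif are printed because these family members were called in different tissues. The difference between the tissues was itself called for neither (edgeR adjusted p = 0.158 for Il6 and 0.0905 for Lif). The windows lie at chr5:30012864-30013163 for Il6 and chr11:4257318-4257617 for Lif, both on the plus strand. Capitals mark the NF-kappaB letters (GGGA, any base, then TTTCC) and the AP-1 letters TGANTCA, both searched on either strand, and no 2 matches overlap.
Il6: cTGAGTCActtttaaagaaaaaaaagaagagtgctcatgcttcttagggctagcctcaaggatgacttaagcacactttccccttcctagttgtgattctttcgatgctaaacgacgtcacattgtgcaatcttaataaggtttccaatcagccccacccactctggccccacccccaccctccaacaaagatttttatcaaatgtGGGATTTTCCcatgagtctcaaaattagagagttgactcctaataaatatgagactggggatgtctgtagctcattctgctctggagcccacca
Lif: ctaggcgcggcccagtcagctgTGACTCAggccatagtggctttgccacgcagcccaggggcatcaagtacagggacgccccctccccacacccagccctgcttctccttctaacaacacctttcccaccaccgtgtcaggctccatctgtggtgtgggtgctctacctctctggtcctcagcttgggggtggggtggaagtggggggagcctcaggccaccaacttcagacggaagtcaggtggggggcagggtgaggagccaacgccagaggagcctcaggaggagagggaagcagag
The NF-kappaB match of Il6 begins at -44 and its AP-1 match at -249, and the AP-1 match of Lif begins at -228. Of the 32851 windows, 0.411% held the NF-kappaB letters and 7.81% the AP-1 letters. The STAT letters TTCNNNGAA, found in 8.30% of windows, were in none of the member windows searched. Csf1 also held an NF-kappaB match, at -154 on the opposite strand. Promoter entries were matched for 7 of the members. Il7, Il15 and Il34 had none.

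Of the TNF family, Tnfsf13b (ENSMUSG00000031497, chromosome 8, 10006467 to 10039072, plus strand), the B cell survival factor BAFF, had 7.25, 11.5 and 18.9 CPM in colonic GFP-positive cells, against 82.6, 113 and 125 CPM in colonic GFP-negative cells. The groups were far apart, and the log2 difference was -3.09 ± 0.47 (adjusted p = 0.00159). In the small intestine it had 19.6, 14.8 and 36.1 CPM in GFP-positive cells and 14.1, 39.3 and 31.5 CPM in GFP-negative cells, which overlap (-0.27 ± 0.43, adjusted p = 0.782). The difference between the tissues was itself called (log2 -2.82 ± 0.64, adjusted p = 0.0425), as 1 of 9 members where 0.895% of all genes were called lower in this term and 1.16% higher. It was called in 3 of the 12 fits without a library, and its highest adjusted p was 0.119 without colonic GFP-negative replicate 2. The colonic GFP-negative libraries also held the most telocyte markers, at 986 to 1058 CPM summed over 7 genes, against 86.2 to 135 CPM in colonic GFP-positive libraries, and all 7 were called lower in colonic GFP-positive cells. The part of these cells in the Tnfsf13b difference was not tested. The window of its second RefSeq start (chr8:10006383-10006682, plus strand) is shown as that of the member with the clearest difference between tissues. Capitals mark the AP-1 letters at -127. Relative to the first RefSeq start the same letters lie at position 40, after that start, and the gene counts cannot say which start was used.
Tnfsf13b start 2: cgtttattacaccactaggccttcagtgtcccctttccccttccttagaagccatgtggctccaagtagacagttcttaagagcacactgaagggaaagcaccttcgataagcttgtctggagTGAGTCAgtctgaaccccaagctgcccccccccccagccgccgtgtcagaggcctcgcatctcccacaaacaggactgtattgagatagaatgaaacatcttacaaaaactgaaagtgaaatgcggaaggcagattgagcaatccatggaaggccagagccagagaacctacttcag

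Tnfsf11 (ENSMUSG00000022015, chromosome 14, 78277445 to 78308043, minus strand), the gene of RANKL, was too low to be tested. It had 2, 0 and 0 counts in colonic GFP-positive and 8, 7 and 1 counts in colonic GFP-negative libraries, and 0, 0 and 7 counts in small intestinal GFP-positive and 4, 0 and 141 counts in small intestinal GFP-negative libraries. The 141 counts belong to the library with the high leukocyte markers. Tested without the filter, its adjusted p was 0.756 in the colon and 0.374 in the small intestine.

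**Figure D3:**
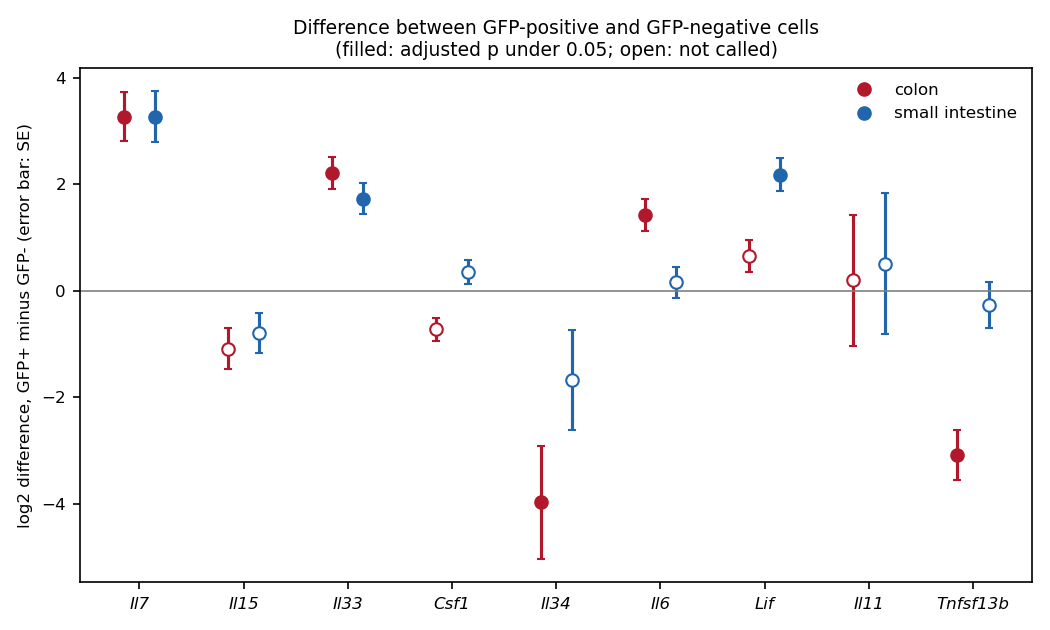
Log2 difference between GFP-positive and GFP-negative cells for the 9 tested members, with the SE as a bar, in the colon and the small intestine. Filled points passed an adjusted p of 0.05, which Il7 and Il33 did in both tissues.

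Without small intestinal GFP-negative replicate 3, the small intestinal log2 differences of Il7, Il33 and Lif were 3.03 (adjusted p = 0.00335), 1.68 (0.00809) and 2.45 (8.64e-04), so the 3 calls did not rest on it. The same fit called Csf1 in the colon (adjusted p = 0.0368), called the difference between tissues for Lif (log2 -1.80, adjusted p = 0.0460) and no longer called that for Tnfsf13b (adjusted p = 0.0591). With all libraries, the difference between tissues was not called for Lif (-1.53 ± 0.44, adjusted p = 0.0905), Csf1 (-1.07 ± 0.31, adjusted p = 0.0967) or Il6 (1.26 ± 0.42, adjusted p = 0.158). For Il33 it was 0.48 ± 0.42 (adjusted p = 0.691), and for Il7 it was 0.00 in size with an SE of 0.66, which leaves room for a sizeable difference either way.

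Levels of different members were compared per length, as TPM within the protein-coding total of each library. Il33 was the highest member in colonic GFP-positive cells, at 650 ± 48.0 TPM (SD, n = 3), with 60.8% of the sum of the 10 genes. It was also the highest in small intestinal GFP-positive cells, at 1037 ± 29.1 TPM (72.6%), and in small intestinal GFP-negative cells, at 333 ± 80.4 TPM (43.7%). In colonic GFP-negative cells Csf1 came first at 294 ± 29.4 TPM (39.9%), above Tnfsf13b at 159 ± 32.6 TPM and Il33 at 145 ± 70.5 TPM, whose ranges overlap each other. Il6 and Csf1 had overlapping ranges in every group but the colonic GFP-negative one. Il7 followed Il33, Il6 and Csf1 in colonic GFP-positive cells at 51.2 ± 0.595 TPM, clear of its neighbours. Csf1 exceeded Il34 in each of the 12 libraries. As a ratio, among the 11 libraries with Il34 above 0, they came nearest to each other in small intestinal GFP-negative replicate 2, with 142 TPM of Csf1 and 61.7 TPM of Il34 (2.30-fold), followed by replicate 1 of that group (2.42-fold). Il34 had 13 counts in each of colonic GFP-positive replicates 2 and 3, yet 19.7 and 1.75 TPM, so these ratios are uncertain. The sum of the 10 genes was 1063 to 1074 TPM in colonic GFP-positive and 615 to 827 TPM in colonic GFP-negative libraries, and 1291 to 1513 TPM in small intestinal GFP-positive and 626 to 887 TPM in small intestinal GFP-negative libraries. Il15 ranged from 17.9 to 132 TPM over the small intestinal GFP-negative libraries, although its CPM ranged only from 8.88 to 14.8, so its per-length level there is uncertain.

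**Figure D4:**
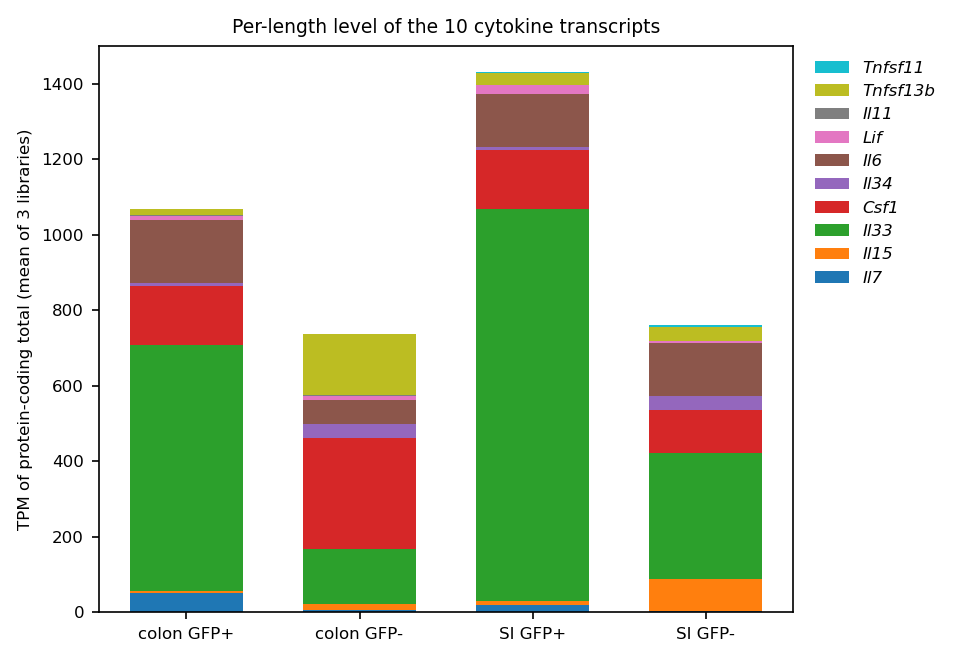
Mean per-length level (TPM of the protein-coding total, 3 libraries per group) of the 10 genes, stacked. Il33 takes 60.8% of the colonic GFP-positive bar and 72.6% of the small intestinal GFP-positive bar, and Csf1 takes 39.9% of the colonic GFP-negative bar.

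Between the tissues, colon was compared with small intestine within each sort. These comparisons use the same libraries as those above, and replicate 3 of both tissues carries the same ID number. A fit with a term for these 4 libraries, chosen after the data were seen, called the same members in each of the 5 comparisons. Within GFP-positive cells 1 of 9 members was called, lower in the colon, where 1.81% of all genes were called lower and 2.75% higher. That member was Lif, at 16.5, 12.7 and 15.3 CPM in the colon and 46.8, 37.8 and 26.5 CPM in the small intestine (log2 -1.32 ± 0.30, adjusted p = 0.0253). Only the fit without small intestinal GFP-positive replicate 3 kept this call among the 6 that left out a compared library, and the highest adjusted p was 0.120 without colonic GFP-positive replicate 2. Il7 lay higher in every colonic GFP-positive library, with a log2 difference of 1.23 ± 0.42 that was not called (adjusted p = 0.140). Il33 and Il15 lay lower in every colonic GFP-positive library and were not called, at -0.77 ± 0.29 (adjusted p = 0.184) and -0.85 ± 0.39 (adjusted p = 0.295). Csf1 and Il6 were at 0.051 ± 0.22 and 0.065 ± 0.29. So 1 member lay higher and 3 lower in the colon without overlap, against 12.9% and 11.8% of all genes.

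Within GFP-negative cells 4 of 9 members were called, 2 higher and 2 lower in the colon, where 2.20% of all genes were called higher and 2.01% lower. Csf1 was higher in the colon by 1.12 ± 0.22 (adjusted p = 0.0157), at 278, 296 and 317 CPM in the colon and 133, 168 and 107 CPM in the small intestine. Without colonic GFP-negative replicate 2 or 3 its adjusted p was 0.0531 or 0.0680. Tnfsf13b was higher by 1.91 ± 0.44 (adjusted p = 0.0356), a call that only the fit without small intestinal GFP-negative replicate 2 kept, with up to 0.131 without colonic GFP-negative replicate 3. Il33 was lower in the colon by a log2 difference of -1.24 ± 0.29 (adjusted p = 0.0355), and it lost the call without colonic GFP-negative replicate 1 (0.132) or 3 (0.186) or small intestinal GFP-negative replicate 2 (0.0654). Il6 was lower at -1.20 ± 0.30 (adjusted p = 0.0443), kept only without small intestinal GFP-negative replicate 2 and at 0.188 without colonic GFP-negative replicate 3. Groups without overlap were higher in the colon for 3 members and lower for 2, against 11.5% and 11.0% of all genes. Without the leukocyte-rich library, 2 members were called here, Csf1 and Il33. In this comparison 4 of 7 telocyte markers were also higher in the colon.

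The receptors of these cytokines were mostly not called. Of 18 receptor genes 16 were tested, of which 1 was higher and 1 lower in colonic GFP-positive cells, against 4.62% and 4.06% of all genes, and 2 were lower in small intestinal GFP-positive cells, against 6.63%. The list median log2 difference was -0.39 in the colon, against -0.03 over all genes. The small intestinal median was -0.82 with all libraries and 0.10 without the leukocyte-rich GFP-negative replicate 3, which held the highest small intestinal GFP-negative values of Il7r, Il2rb, Il2rg, Csf1r, Tnfrsf13b and Sdc1, so no direction is given for the list there. Il2rg, the common gamma chain of the interleukin 7 and interleukin 15 receptors, had 50.7, 46.7 and 32.6 CPM in colonic GFP-positive cells, against 4.11, 2.28 and 3.29 CPM in colonic GFP-negative cells (log2 3.75 ± 0.66, adjusted p = 0.00437). In the small intestine it had 27.2, 30.5 and 15.9 CPM in GFP-positive cells and 21.3, 11.5 and 81.0 CPM in GFP-negative cells, the last being the leukocyte-rich library. Il7r, the other chain of the interleukin 7 receptor, had at most 1.89 CPM in 11 libraries and 65.4 CPM in that one. Lifr, the receptor chain for LIF, was lower where its ligand was higher, at 118, 79.0 and 128 CPM in small intestinal GFP-positive cells and 481, 279 and 155 CPM in small intestinal GFP-negative cells (log2 -1.49 ± 0.35, adjusted p = 0.0151). Without small intestinal GFP-positive replicate 2 its adjusted p was 0.0690.

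Ptprz1, a receptor phosphatase that binds interleukin 34, had 0.333, 0 and 1.54 CPM in small intestinal GFP-positive cells and 81.5, 25.8 and 42.3 CPM in small intestinal GFP-negative cells (log2 -6.38 ± 1.06, adjusted p = 0.00355). All 5 tested enteric glia markers were called lower in the same cells, and the part of glia in the Ptprz1 difference was not tested. Il1rap, the accessory chain of the interleukin 33 receptor, was lower in colonic GFP-positive cells by a log2 difference of -0.91 ± 0.22 (adjusted p = 0.0228), a call that none of the 6 fits without a colonic library kept (0.0532 to 0.116). Il1rl1, the interleukin 33 receptor ST2, was singled out after its values were seen. It had 0.440, 0 and 0 CPM in colonic GFP-positive cells and 20.8, 3.20 and 9.50 CPM in colonic GFP-negative cells and was not called (adjusted p = 0.0545). Tnfrsf11b, the decoy receptor osteoprotegerin that captures RANKL, was higher in the colon in both sorts, by 2.25 ± 0.33 in GFP-positive cells (adjusted p = 0.00216) and 1.69 ± 0.32 in GFP-negative cells (adjusted p = 0.0137, and 0.0605 without colonic GFP-negative replicate 3).

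**Figure D5:**
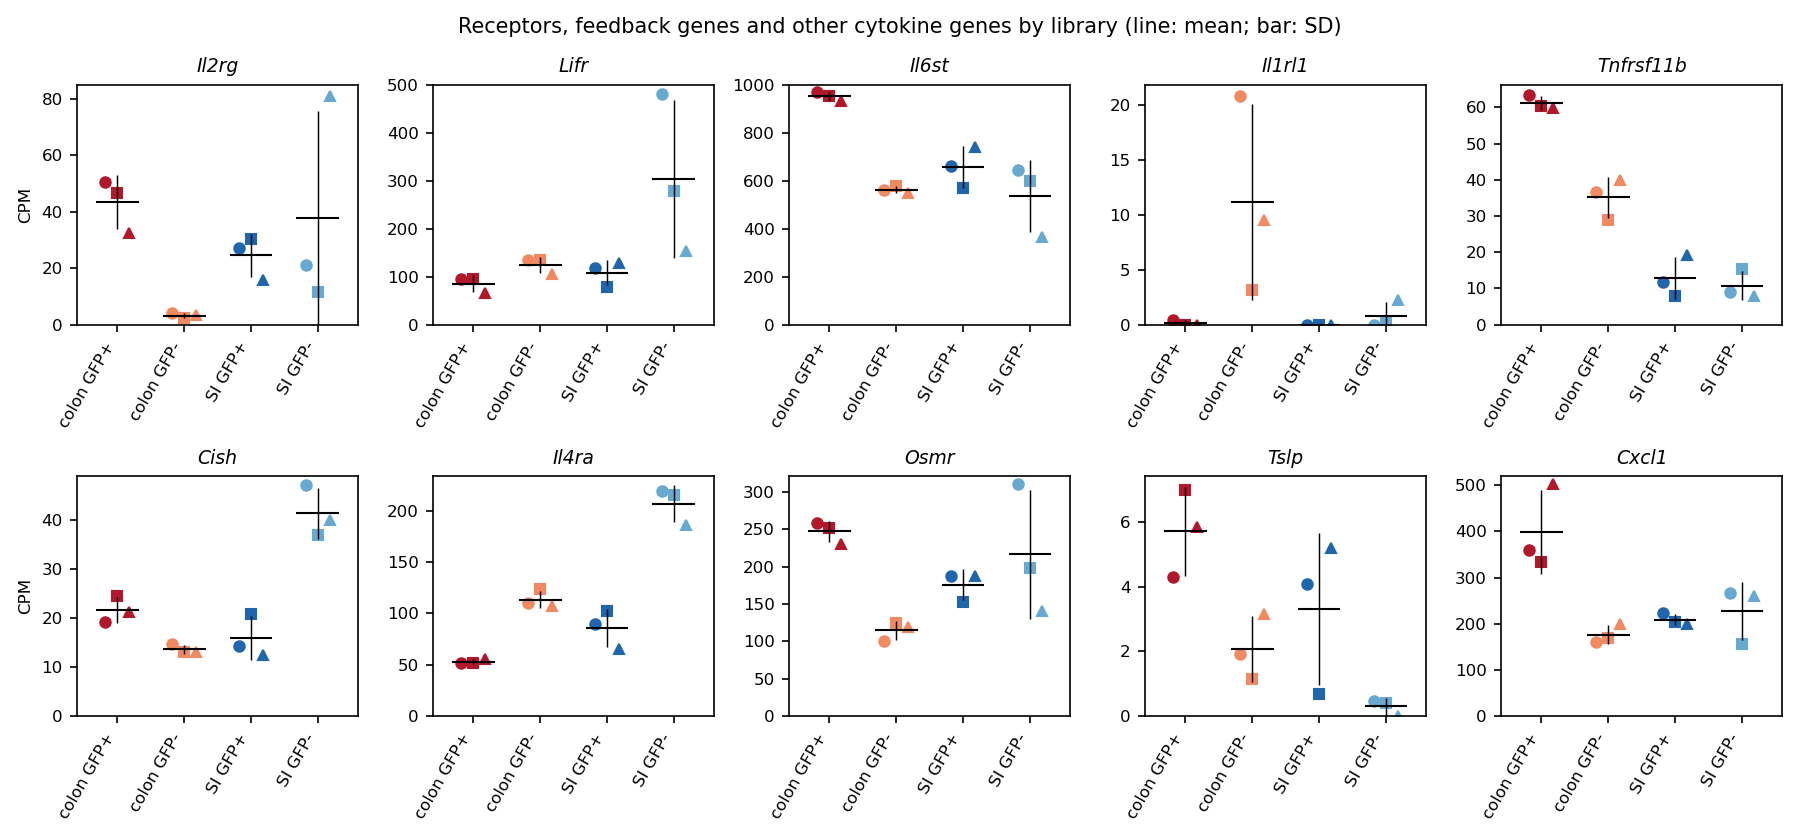
CPM of receptor, feedback and other cytokine genes in each library, by group, with the mean as a line and the SD as a bar (n = 3). Il2rg is high in colonic GFP-positive libraries (32.6 to 50.7 CPM) and Cish in small intestinal GFP-negative libraries (37.0 to 47.1 CPM).

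Among 14 JAK-STAT feedback and gp130 target genes, 2 were higher and 1 lower in colonic GFP-positive cells (4.62% and 4.06% of all genes), and 3 were lower in small intestinal GFP-positive cells (6.63% of all genes). The list median log2 difference was 0.30 in the colon and -0.25 in the small intestine, where it was -0.41 without the leukocyte-rich library. Myc and Osmr, the oncostatin M receptor chain, were higher in the colon by 1.54 ± 0.24 (adjusted p = 0.00159) and 1.11 ± 0.25 (adjusted p = 0.0133). Osmr lost its call without colonic GFP-negative replicate 1 (0.0633) or GFP-positive replicate 2 (0.0531). Il4ra was lower in GFP-positive cells of both tissues, at -1.10 ± 0.18 in the colon (adjusted p = 0.00218) and -1.27 ± 0.18 in the small intestine (adjusted p = 9.23e-04). Cish, a feedback inhibitor of STAT5, had 14.3, 20.9 and 12.5 CPM in small intestinal GFP-positive cells and 47.1, 37.0 and 39.9 CPM in small intestinal GFP-negative cells (log2 -1.38 ± 0.23, adjusted p = 0.00212). In the colon it had 19.2, 24.4 and 21.1 CPM in GFP-positive cells and 14.7, 13.0 and 13.0 CPM in GFP-negative cells, and the difference between the tissues was called (2.05 ± 0.32, adjusted p = 0.00949). Within GFP-negative cells 4 of these 14 genes were lower in the colon, against 2.01% of all genes: Cish at -1.61 ± 0.23 (adjusted p = 0.00316), Il4ra, Socs2 and Pim3. Of them, Cish alone kept its call in all 6 fits without a compared library.

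Of 17 NF-kappaB pathway and target genes, 3 were higher in colonic GFP-positive cells (4.62% of all genes), and 2 were lower in small intestinal GFP-positive cells (6.63% of all genes). The list median log2 difference was 0.44 in the colon and -0.17 in the small intestine, where it was -0.014 without the leukocyte-rich library. The small intestinal calls, Traf1 (adjusted p = 0.0347) and Vcam1 (0.0369), were each kept in 2 of the 6 fits without a small intestinal library, and both ended with the replicate number as a block (0.0769 and 0.05005). Of the colonic calls, that of Rela, a subunit of NF-kappaB (log2 0.52, adjusted p = 0.0492), was kept in 0 of the 6 fits without a colonic library, at 0.0987 to 0.222. Cxcl1, a neutrophil chemokine, had 360, 333 and 502 CPM in colonic GFP-positive cells and 160, 168 and 200 CPM in colonic GFP-negative cells, at a log2 difference of 1.18 ± 0.23 (adjusted p = 0.00653). Ccl2, a monocyte chemokine, was higher there at 1.29 ± 0.35 (adjusted p = 0.0391), and its adjusted p lay between 0.0651 and 0.174 in 5 of the 6 fits without a colonic library. Within GFP-negative cells 4 of these 17 genes were lower in the colon (2.01% of all genes), Traf1, Birc3, Icam1 and Rela, and each lost its call in at least 4 of the 6 fits without a compared library. Of 28 other cytokine genes 26 were in the table and 14 were tested, of which 1 was higher in colonic GFP-positive cells (4.62% of all genes), and 1 was higher and 1 lower in small intestinal GFP-positive cells (4.24% and 6.63% of all genes). Tnfsf10, the gene of the death ligand TRAIL, was higher in the colon at 101, 80.6 and 77.8 CPM in GFP-positive cells and 34.2, 14.96 and 16.1 CPM in GFP-negative cells (log2 1.99 ± 0.43, adjusted p = 0.0124). It lost the call without colonic GFP-negative replicate 2 (0.0570) or 3 (0.0562). Csf3, the neutrophil growth factor, was lower in small intestinal GFP-positive cells, at 0.166, 0 and 0 CPM against 6.49, 3.66 and 2.41 CPM in GFP-negative cells (adjusted p = 0.00839). The GFP-positive value rests on 2 counts, so no fold is given. Tslp, an epithelial and stromal alarmin, was higher there at 4.08, 0.690 and 5.20 CPM, against 0.481, 0.418 and 0 CPM in GFP-negative cells (3.34 ± 0.93, adjusted p = 0.0355), and only 1 of the 6 fits without a small intestinal library kept the call. With the replicate number as a block, which pairs the small intestinal sorts, its adjusted p was 0.125. The median log2 difference of the 14 tested genes was -0.36 in the colon and -0.20 in the small intestine. Without the leukocyte-rich library, where 15 were tested, the small intestinal median was 0.42, so no direction is given for the list there.

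Genes with the pattern nearest to each member were sought over the 12 libraries, by the root mean square (RMS) difference of mean-centred log2 CPM. For Il7 they were F2rl1 (0.44), Pard6g (0.44) and Fgl2 (0.55), where Il7 itself varied by 1.80 about its mean. For Il33 they were Selenop (0.42), Tgfb3 (0.43) and Slc16a9 (0.46), against 1.18 for Il33. Csf1 had the closest match of all, with Atp11a at 0.13, followed by Atp10a at 0.17 and Acvr1 at 0.18, but it also varied least, at 0.47. Tnfsf13b was nearest to Rgs10 (0.38), Wnt5a (0.43) and Hs3st3b1 (0.48), and varied by 1.26. Wnt5a is 1 of the 7 telocyte markers. Lif was nearest to Flrt3 (0.43), Tiam1 (0.43) and Trf (0.48), Il6 to Gpatch4 (0.30) and Il15 to Ccdc134 (0.31). About their own means Lif, Il6 and Il15 varied by only 0.90, 0.65 and 0.66. Il34 was nearest to Samd5 (0.86) and Il11 to Lipg (0.80), and these members varied by 1.93 and 1.5004 about their means. The points share libraries and group structure, and a likeness of pattern is a description of these 12 libraries.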

How the data were processed

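RNA was sequenced in 12 libraries (total RNA, column extraction, ZapR ribosomal RNA removal, per the labels' protocols). The submitters' processing notes name mm10, Salmon 1.1.0 and R 3.6.1. The annotation release, filters and rounding are not given in the sources used here. The deposited expected counts (100% whole numbers) were treated as rounded Salmon estimates. A further table deposited by the authors gives log2(TPM + 1), and TPM divides by transcript length. Symbols and positions came from GENCODE M21 (GRCm38) for 32001 of 32052 identifiers. Libraries held 6489835 to 12286054 counts, so genes with few counts are measured with wide error.

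Counts were tested with edgeR 4.0.16 (robust quasi-likelihood, TMM, filterByExpr at a minimum count of 10) in R 4.3.3, in 1 model of all 12 libraries with a mean per group. Benjamini-Hochberg adjustment ran over 16757 genes with a threshold of 0.05. The 5 comparisons set GFP-positive against GFP-negative cells in each tissue, took the difference of these effects, and set colon against small intestine within each sort. The SE was taken from the log2 difference and the F statistic, and for the difference of effects from both effects' SEs. The scripts were tested on simulated data. Per-length levels were TPM rescaled to the protein-coding total, which was 4.65% to 8.09% of all TPM. The members and gene lists were chosen with earlier results of these data known. Named genes were every member, Rspo3, up to 4 called genes per list and comparison with the smallest adjusted p, and the 3 genes nearest each member. Il25 and Il27 are not analysed here, nor are samples sorted on CD31. Alternatives were RLE and upper-quartile factors, DESeq2 1.42.0, limma-voom (limma 3.58.1), the log2(TPM + 1) values, no filter, a protein-coding library size, only the compared libraries, a replicate block and leaving out each library.

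The column names give both sorts of a replicate the same mark. One ID number stands on replicate 3 of all 4 groups, and the labels do not say whether a mark is an animal. Same-numbered small intestinal GFP-positive and GFP-negative libraries deviated together (correlations of 0.323, 0.179 and 0.166), so the numbers were taken to pair those sorts. In the colon the correlations were 0.00933, 0.0465 and 0.0903, so the pairing there rests on the names alone. Replicate 3 of colon and small intestine correlated at 0.0540 among GFP-positive and 0.223 among GFP-negative libraries. The tests treat the 12 libraries as independent, and a fit with a term for the shared ID number was added after the data were seen.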

Additional observations from a re-analysis of the deposited data

Results flagged for a closer look

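Under the same contrast of GFP-positive with GFP-negative cells, the colon and the small intestine differed by the interaction test for 3 of the named genes. For Tnfsf13b the colonic effect minus the small intestinal effect was -2.82 on the log2 scale (adjusted p = 0.0425, edgeR), with 3 of the 12 fits without a library keeping the call. For Cish it was 2.05 (adjusted p = 0.00949), kept in 12 of 12 such fits and lost on the log2(TPM + 1) scale (adjusted p = 0.207). For Il2rg it was 4.37 (adjusted p = 0.0295), kept in 4 of 12 and lost with the replicate block (adjusted p = 0.0911). Small intestinal GFP-negative replicate 3 held 81.0 CPM of Il2rg and 1198 CPM of summed leukocyte markers, and without it the value was 3.16 (adjusted p = 0.00779).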

How the results depend on the processing

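The calls of Il7 and Il33 in both tissues and of Tnfsf13b in the colon held under every alternative run, and that of Lif in the small intestine held under all but log2(TPM + 1). Over all alternatives, member results kept direction and side of the threshold in 871 cases, were lost as calls in 64, gained in 13 and reversed in 41, and the causes were not tested. The 871 include results not called in the main fit, so they do not measure how firm the calls were. The colonic call of Il34 was lost in 13 alternatives and kept in 9. That of Il6 between tissues within GFP-negative cells was lost in 12 and kept in 10. In libraries of 6489835 to 12286054 counts, the members with the fewest counts over all 12 were Tnfsf11 (170), Il11 (199), Il15 (720) and Il34 (885).

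The number of genes called in the small intestinal GFP comparison was 1821, with 671 on the log2(TPM + 1) scale and 850 with only the compared libraries. In the colonic one it was 1456, with 3016 with only the compared libraries. For the difference of effects it was 345, with 1095 by DESeq2, 179 by limma-voom and 160 on log2(TPM + 1). Within GFP-positive cells it was 765, with 1430 by DESeq2, 364 by limma-voom and 376 on log2(TPM + 1). Within GFP-negative cells it was 706, with 1661 by DESeq2, 1509 on log2(TPM + 1) and 406 with only the compared libraries. Members called numbered 3 on log2(TPM + 1) in the colon, against 5. For the difference of effects they numbered 3 by DESeq2 and 0 without a filter (Tnfsf13b adjusted p = 0.0936), against 1. Within GFP-positive cells they numbered 2 by limma-voom and 2 with only the compared libraries, against 1. Within GFP-negative cells they numbered 2 on log2(TPM + 1) and 1 with only the compared libraries, against 4. On the log2(TPM + 1) scale the median of all genes was 0.13 in the tissue comparison of GFP-positive cells, against -0.02 in the main fit. In that of GFP-negative cells it was 0.19, against -0.06. Without a filter the median was 0.13 in the difference of effects, against 0.04.

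Leaving out 1 library gave 1239 to 2644 genes and 3 members in each fit in the small intestinal GFP comparison, 816 to 1773 genes and 3 to 6 members in the colonic one, and 69 to 1044 genes and 0 to 2 members for the difference of effects. It gave 416 to 1050 genes and 0 to 1 members within GFP-positive cells, and 187 to 1229 genes and 0 to 4 members within GFP-negative cells.

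With the replicate block no member call changed in the small intestine. In the colon the block ended the call of Il34 (adjusted p = 0.112), and within GFP-positive cells 2 members were called, Il7 and Lif. In the small intestine the block also ended the calls of Traf1, Tslp and Vcam1. Under the block Il11 reversed, at -1.21 in the small intestine, -0.063 in the colon and 1.14 for the difference of effects, where that of Il7 became 0.075. A term for the ID number that replicate 3 of all 4 groups share, chosen after the data were seen, changed no member call and raised the genes called for the difference of effects to 537. Under it Il11 reversed, at -0.82 in the small intestine, -0.00038 in the colon and 0.82 for the difference of effects, where that of Il7 became 0.072.

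No called member reversed. Il11 reversed under limma-voom at -1.55 in the small intestine, -0.12 in the colon and 1.42 for the difference of effects. The difference of effects for Il7, near 0, was 0.017 with RLE factors, 0.0098 by DESeq2, 0.19 by limma-voom, 0.89 on log2(TPM + 1) and 0.0019 with a protein-coding library size. On log2(TPM + 1), Lif in the colon was -0.051 and the difference of effects was 0.90 for Il15 and -0.12 for Rspo3. Fits without a library ranged from -0.14 to 0.37 for Il6, -3.48 to 1.11 for Il11 and -0.71 to 0.055 for Tnfsf13b in the small intestine, and from -0.71 to 0.73 for Il11 in the colon. They ranged from -0.42 to 0.42 for Il7 and -1.25 to 3.67 for Il11 in the difference of effects, from -0.11 to 0.22 for Csf1 and -0.14 to 0.37 for Il6 within GFP-positive cells, and from -0.13 to 1.099 for Il34 and -0.054 to 0.48 for Lif within GFP-negative cells.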
